A study of Mus musculus with 6 samples.

Results

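Transcripts of 10 genes that build the contractile lattice of striated muscle were followed in the mouse uterus. They encode skeletal alpha-actin (Acta1), the fast and slow skeletal isoforms of the 3 troponin subunits (Tnni2 and Tnni1, Tnnt3 and Tnnt1, Tnnc2 and Tnnc1), the Z-disc actinins (Actn3 and Actn2) and a tropomyosin (Tpm3). The genes were chosen by symbol, each was found on 1 row, and they are 10 of 26018 genes listed. RNA was sequenced from whole uteri of female mice aged 6 weeks and matched for body weight, with 1 library per animal and no treatment. The control group was 3 animals with floxed Tcf21 (Tcf21f/f), and the conditional knockout (cKO) group was 3 animals with the gene deleted (Tcf21d/d). The labels do not name the Cre driver, the cells it acts in or the deleted part of Tcf21, and they name no agent or allele shared by both groups beyond the floxed gene. Tcf21 encodes a transcription factor of mesenchymal cells, and the study asked which genes it may act on during uterine development.

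In striated muscle, actin filaments anchored at the Z-disc slide past myosin. Tropomyosin lies along the actin filament and covers its myosin-binding sites. When calcium binds troponin C, troponin I lets go of actin, and troponin T passes the movement on to tropomyosin. Fast-twitch and slow-twitch fibres use different genes for these subunits, so the isoforms present differ with fibre type. Alpha-actinin cross-links actin at the Z-disc, with Actn2 in all fibres and Actn3 in fast fibres. The smooth muscle of the uterine wall has no troponin and is switched on through phosphorylation of its myosin light chain instead.

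The libraries held 14584450 to 16579573 reads on genes. Tcf21 was at 341.4, 151.9 and 144.1 normalised read counts in control replicates 1 to 3, and at 26.0, 0 and 0 in cKO replicates 1 to 3. A count of 0 allows up to 2.93 in cKO replicate 2 and 3.31 in cKO replicate 3. The deposited counts are scaled by 1 size factor per library, which is the unit of every level below unless a level per kilobase is named. Of the defining markers of uterine mesenchyme, 8 of 8 passed the filter on low reads, including Pgr, Esr1 and Hoxa10. They took 0.0241 to 0.0505% of reads in controls and 0.00948 to 0.0164% in cKO animals. Smooth muscle markers took 1.22 to 1.76% in controls and 0.509 to 0.689% in cKO animals. That sum includes Des, also listed below with partners of the thin filament and Z-disc. Des was at 60998 to 82710 in controls and 60821 to 92182 in cKO animals. The summed share thus fell less than most genes of the list, whose median log2 fold change was -3.45. In control replicate 1, liver markers took 1.77% of reads, against 0.0372% or less elsewhere. Mitochondrially encoded genes took 23.8% of that library and 8.10 to 13.7% of the others. Neuron markers took 0.0528% of control replicate 3 and at most 0.00862% of any other library. Intestine markers took 0.0154% of control replicate 2, against 0.00515% or less elsewhere, so each control library stood apart in markers of another tissue. In that library Guca2a was at 373.0 and Cdx2 at 53.0, and Cdx2 was at 0 in the 5 others. Not all markers of the list followed this, as Tff3 was at 260.9 in control replicate 1 against 166.3 in control replicate 2. Lgals4 was present in every library, at 357.7 to 954.4.

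Transcripts of the skeletal sarcomere were abundant in these libraries. The 10 genes together took 1.71, 3.25 and 2.61% of all reads in control replicates 1 to 3, against 3.35, 5.13 and 4.87% in cKO replicates 1 to 3. The lowest cKO library was thus just above the highest control. In bulk tissue, a smaller number of cells of a type and less RNA per cell cannot be told apart, and the same holds for an increase. Per kilobase of gene length, Acta1 ranked 4th among 17393 protein-coding genes, with Tnnt3 at rank 9 and Tnni2 at rank 12. Tnni1 was at rank 607 and Tnnc2 at rank 14295. Which cells in the samples carried these transcripts was not tested.

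Levels between genes were compared per kilobase of gene length, which counts all annotated exonic bases of a gene. A gene whose transcripts hold only part of these bases is set too low. The length was 3600 bases for Tnni1 and 6085 for Tpm3, against 1497 for Tnni2. Which transcripts were made was not tested, and this limit holds for every rank, level and share per kilobase given here. Averaged over the 6 libraries, Acta1 stood at 174347 normalised reads per kilobase, followed by Tnnt3 at 72163 and Tnni2 at 61097. Acta1 was above Tnnt3 in 6 of 6 libraries, and Tnnt3 was above Tnni2 in 5 of 6. Actn3 (9499), Tnnc1 (6748), Tnnt1 (4255) and Actn2 (3256) formed a middle group. In that group Actn3 was above Tnnc1 in 4 of 6 libraries, and Tnnt1 above Actn2 in 5 of 6. Tpm3 (1165) and Tnni1 (1110) did not hold an order, with Tpm3 higher in 3 of 6 libraries. Tnnc2 came last at 4.20, under Tnni1 in every library. The fast isoforms of troponin I and troponin T were thus far above the slow ones, while the count of the fast troponin C gene was near 0. Exons of another gene cover 74.0% of the exonic bases of Tnnc2, as described below, and their part in this count was not tested.

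**Figure D1:**
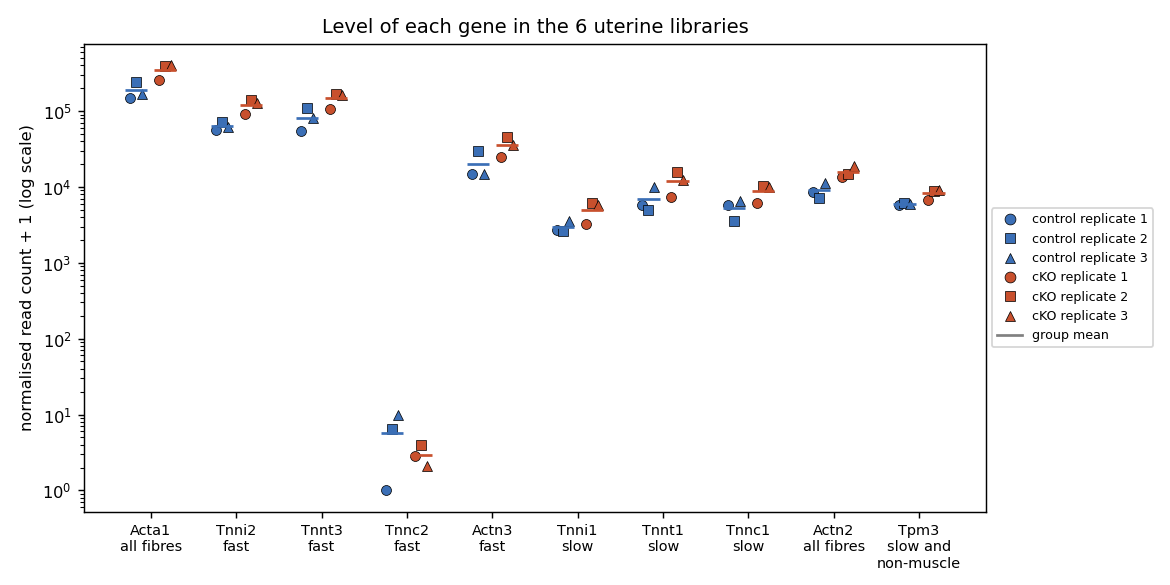
Normalised read count plus 1 (log scale) of each of the 10 genes in 6 libraries, with controls in blue, cKO animals in red, a marker shape for each replicate and a bar for the group mean. Acta1 lies between 149824 and 401685, the slow troponin genes between 2631 and 15796, and Tnnc2 at 8.90 or less in every library.

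Skeletal alpha-actin, the backbone of the thin filament in all skeletal fibres, was the most abundant of the 10. Acta1 (ENSMUSG00000031972) spans 123891769 to 123894751 of chromosome 8, minus strand, in GRCm38. Its counts were 149824, 239760 and 170313 in control replicates 1 to 3, against 256158, 389041 and 401685 in cKO replicates 1 to 3. The groups did not overlap, and the lowest cKO library was 1.07 times the highest control. The mean was 186632 ± 47137 (SD, n = 3) in controls against 348961 ± 80618 in cKO animals. On the log2 scale the difference was 0.90 ± 0.30 (SE), and its limma Benjamini-Hochberg adjusted p, 0.225, missed the threshold of 0.05.

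The coding sequence of Acta1 is 85.4% identical to that of the smooth muscle alpha-actin gene Acta2, 85.0% to that of the smooth muscle gamma-actin gene Actg2 and 86.3% to that of the cardiac actin gene Actc1. A stretch of 60 coding bases (positions 61 to 120 from the A of the start codon) is shown because Acta2 and Actg2 were lower in the cKO uteri while Acta1 was higher in the mean. Capitals mark bases that differ from Acta1.
Acta1: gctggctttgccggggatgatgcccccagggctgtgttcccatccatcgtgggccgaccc
Acta2: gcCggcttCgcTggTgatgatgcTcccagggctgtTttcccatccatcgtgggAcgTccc
Actg2: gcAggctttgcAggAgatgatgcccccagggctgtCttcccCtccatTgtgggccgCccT
Actc1: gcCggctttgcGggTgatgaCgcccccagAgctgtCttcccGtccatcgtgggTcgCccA
In this stretch Acta2 and Actg2 each differ from Acta1 at 8 bases and Actc1 at 10. The longest run of coding bases that Acta1 shares exactly with each of these 3 genes is 29. No other gene in the annotation had a stretch of at least 100 bases with at least 95% identity to an Acta1 transcript.

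Both smooth muscle actin genes fell in the cKO uteri. Acta2 went from 39614 ± 10832 (SD, n = 3) in controls down to 4988 ± 495, which is -2.96 ± 0.23 (SE) on the log2 scale (limma adjusted p = 0.0011). Actg2 went from 18631 ± 5329 down to 198.9 ± 179, or -6.86 ± 0.60 on that scale (limma adjusted p = 0.0089). The call of Actg2 was lost with the replicate block (limma adjusted p = 0.0856), without control replicate 2 (0.0531) and without control replicates 1 and 3 (0.104). Actc1, the actin of heart and of immature skeletal fibres, stood at 212.2, 426.9 and 766.0 in control replicates 1 to 3 against 259.2, 876.6 and 1255.2 in cKO replicates 1 to 3, and its groups overlapped. Its log2 fold change was 0.68 ± 0.72 (limma adjusted p = 0.751).

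Troponin I is the subunit that holds the actin filament in its inhibited state. Its fast gene, Tnni2, was at 55935, 72223 and 62269 in control replicates 1 to 3, against 90957, 140910 and 126478 in cKO replicates 1 to 3. Every cKO library was above every control, by at least 1.26 times. The cKO mean was higher by 0.90 ± 0.25 (SE, n = 3 per group) in log2 units, and the limma adjusted p of 0.153 was the smallest among the tested genes of the 10. Tnni2 spans 142441808 to 142444410 of chromosome 7 and Tnni1 135779434 to 135810989 of chromosome 1, both on the plus strand. The slow gene, Tnni1, was at 2690, 2631 and 3591 in the controls against 3224, 6096 and 5750 in cKO animals. Here cKO replicate 1 lay below control replicate 3, so the groups overlapped. The log2 fold change of Tnni1 was 0.72 ± 0.26 (limma adjusted p = 0.262).

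Troponin T anchors the complex to tropomyosin. Its fast gene, Tnnt3, was at 54216, 109293 and 80175 in control replicates 1 to 3, against 107355, 170091 and 164270 in cKO replicates 1 to 3. The groups overlapped by a small margin, since cKO replicate 1 was 0.982 times control replicate 2. The log2 fold change was 0.89 ± 0.32 (SE, 3 libraries per group; limma adjusted p = 0.259). Tnnt3 (142498836 to 142516009, plus strand) lies near Tnni2 on chromosome 7, which also holds Tnnt1 (4504570 to 4516382, minus strand). The slow gene, Tnnt1, was at 5767, 4979 and 9880 in the controls against 7427, 15796 and 12416 in cKO animals. It overlapped more widely, with cKO replicate 1 at 0.752 times control replicate 3. Its log2 fold change was 0.79 ± 0.34 (limma adjusted p = 0.354).

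Troponin C is the calcium sensor. Its slow gene, Tnnc1, also the isoform of the heart, was at 5763, 3536 and 6443 in control replicates 1 to 3, against 6217, 10166 and 10020 in cKO replicates 1 to 3. One cKO library, replicate 1, was under control replicate 3, and the log2 fold change was 0.76 ± 0.28 (SE, 3 libraries per group; limma adjusted p = 0.271). Tnnc1 spans 31208312 to 31211729 of chromosome 14, plus strand. Its fast counterpart, Tnnc2, had 22 reads in all 6 libraries together. It was at 0, 5.39 and 8.90 in the controls against 1.86, 2.93 and 1.10 in cKO animals, did not pass the filter on low reads, and was not tested by limma. The 0 in control replicate 1 allows a value of up to 3.66. Per kilobase, Tnnc1 was at least 504 times Tnnc2 in each of the 5 libraries with a Tnnc2 read, while for troponins I and T the fast gene was 11.3 to 67.8 times the slow one.

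Exons of Tnnc2 overlap those of another gene. Tnnc2 (ENSMUSG00000017300) spans 164777161 to 164779967 of chromosome 2, minus strand, in GRCm38. In GENCODE M21, the last exon of Ube2c in its longer-reaching transcript, which runs from 164777190 to 164778822 on the plus strand, covers 592 of the 800 exonic bases of Tnnc2, or 74.0%. Of the 6 exons of the longer Tnnc2 transcript, 4 lie wholly inside it and 1 partly. The third exon (chr2:164777944-164778087, minus strand), all of it coding, is shown because a read from either gene could carry these bases or their complement. Capitals mark bases inside the Ube2c exon, which here are all 144.
Tnnc2 exon 3: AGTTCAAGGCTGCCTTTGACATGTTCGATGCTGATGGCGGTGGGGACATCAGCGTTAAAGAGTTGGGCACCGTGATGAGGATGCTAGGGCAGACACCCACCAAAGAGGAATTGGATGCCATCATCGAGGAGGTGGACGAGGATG
The other 9 genes have no exonic base in common with another gene. No source used here says whether reads were counted by strand. Without strand, a read that lies within 1 shared exon cannot be assigned to Tnnc2 or to Ube2c. The other 208 exonic bases of Tnnc2 lie outside Ube2c exons. Ube2c, which encodes a ubiquitin-conjugating enzyme of mitosis, was at 141.4, 71.9 and 102.3 in control replicates 1 to 3, against 130.1, 278.9 and 221.0 in cKO replicates 1 to 3, with a log2 fold change of 0.97 ± 0.36 (SE, limma adjusted p = 0.278). Of 152 genes in the other lists with an annotation, 1 had opposite-strand exons over at least 50% of its own, the smooth muscle gene Tagln at 67.9%. Tagln, chosen here after its values were seen, was at 414.5 to 639.0 in controls and 40.9 to 94.6 in cKO animals. The part of such overlap in the low level of Tnnc2 was not tested.

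**Figure D2:**
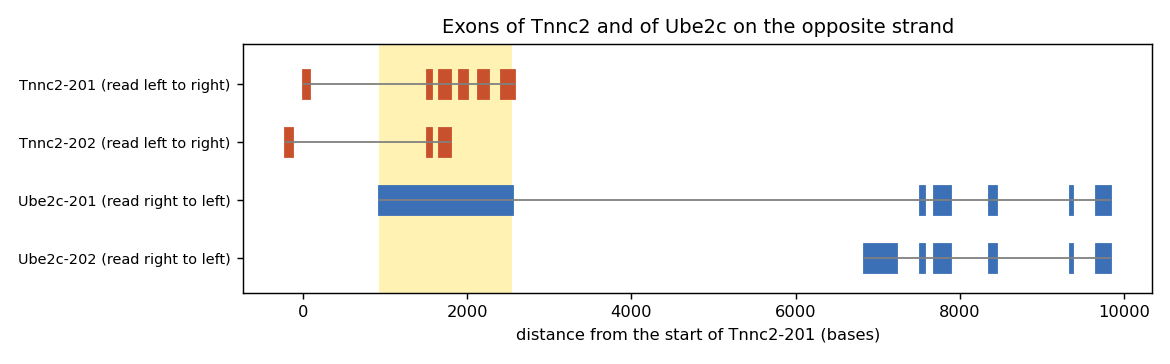
Exons (boxes) of the 2 transcripts of Tnnc2 (red) and the 2 of Ube2c (blue) on the opposite strand, by distance in bases from the start of the longer Tnnc2 transcript, with the span of that last Ube2c exon shaded. Of the 6 exons of the longer Tnnc2 transcript, 5 lie inside or partly inside the shaded exon.

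The alpha-actinins tie actin filaments together at the Z-disc. Actn2 was at 8640, 7075 and 11344 in control replicates 1 to 3, against 13445, 14668 and 18969 in cKO replicates 1 to 3, with no overlap between the groups. Its log2 fold change was 0.81 ± 0.23 (SE, 3 libraries per group; limma adjusted p = 0.159). Actn2 spans 12269426 to 12340760 of chromosome 13 and Actn3 4861223 to 4877909 of chromosome 19, both on the minus strand. Actn3, the fast-fibre form, was at 14893, 29574 and 14983 in the controls against 24651, 44952 and 35894 in cKO animals. Control replicate 2 was above cKO replicate 1, so its groups overlapped, and its log2 fold change was 0.86 ± 0.32 (limma adjusted p = 0.283). Actn1, an actinin of smooth muscle and non-muscle cells, went down from 3449 ± 723 (SD) in controls to 1261 ± 159, which is -1.44 ± 0.19 in log2 units (limma adjusted p = 0.00913). The call of Actn1 was lost without cKO replicate 1 (limma adjusted p = 0.0635), 2 (0.0811) or 3 (0.0503).

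Tpm3 makes the tropomyosin of slow fibres and, from other start sites and exons, tropomyosins of non-muscle cells. It spans 90072649 to 90100902 of chromosome 3, plus strand. It was at 5773, 6095 and 6006 in control replicates 1 to 3, a spread of 2.79% around the mean, and at 6731, 8910 and 9007 in cKO replicates 1 to 3. The groups did not overlap, and the log2 fold change, 0.45 ± 0.18 (SE, n = 3 per group; limma adjusted p = 0.306), was the smallest of the 9 tested. A copy named Tpm3-rs7 shares up to 2108 bases with Tpm3 at 95% identity or more and stood at 115.7 to 306.1, so the count of Tpm3 is uncertain by reads that could match both. Tpm1 and Tpm2, tropomyosins of both striated and smooth muscle, had log2 fold changes of 0.56 ± 0.23 and 0.52 ± 0.22, without a call (limma adjusted p = 0.323 and 0.34). The remaining member of the family, Tpm4, was at -0.07 ± 0.15.

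All 9 genes that passed the filter were higher in the cKO mean, as were 50.3% of all genes tested, and none was called by limma. Their log2 fold changes ran from 0.45 to 0.90 with a median of 0.81, against 0.002 over 16314 genes tested. At an adjusted p under 0.05, limma called 0.276% of genes as higher and 0.889% as lower, 1.16% in all. At an unadjusted p under 0.05, 9 of the 9 were higher, against 6.11% of all genes tested. The genes were measured in the same libraries and correlated over them (Pearson's r with Acta1 of 0.614 to 0.977). They are therefore not 9 separate observations, and the genes of each list below are likewise not separate observations. Every 95% confidence interval of the 9 lay above 0, the lowest bound being 0.02 for Tnnt1 and the highest upper bound 1.60 for Tnnt3. In 4 of the 9 (Acta1, Tnni2, Actn2 and Tpm3) the 3 cKO libraries lay above the 3 controls, a separation seen in 9.04% of all genes tested.

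The call depended on the test. The authors' deposited table lists adjusted p values of 0.00134 for Tnni2, 0.00713 for Acta1, 0.0152 for Actn2 and 0.0316 for Tnnt3, with log2 fold changes of 0.91, 0.90, 0.80 and 0.86. The same table has 0.883% of its genes with a p-value as higher at that threshold. DESeq2 on the recovered reads repeated the authors' log2 fold changes of the 10 genes to within 6.04e-06, so it is not a second test. It called the same 4, Tnni2, Acta1, Actn2 and Tnnt3. Both called 227 genes as higher, or 1.22% of 18638 genes here and 0.883% of 25700 in the authors' table. By contrast, edgeR called none of the 10, where it called 0.0797% of genes as higher. Without control replicates 1 and 3, which held the most liver and neuron transcripts, limma called Actn2 (1.13, adjusted p = 0.0226) and Tnnc1 (1.28, adjusted p = 0.0304), with 1.5% of all genes called higher. That choice was made after seeing the data and leaves as the only control replicate 2, the library with the most intestine transcripts, which is assumed to vary like the rest. In that fit Actn3 and Tnnt3 had log2 fold changes of 0.21 and 0.40, against 0.86 and 0.89 with all libraries, and Acta1 and Tnnt1 had 0.51 and 1.19, against 0.90 and 0.79. Without control replicate 2 alone, Tnnc1 had 0.49, against 0.76. The part of the liver, neuron, intestine and smooth muscle transcripts in these differences was not tested.

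**Figure D3:**
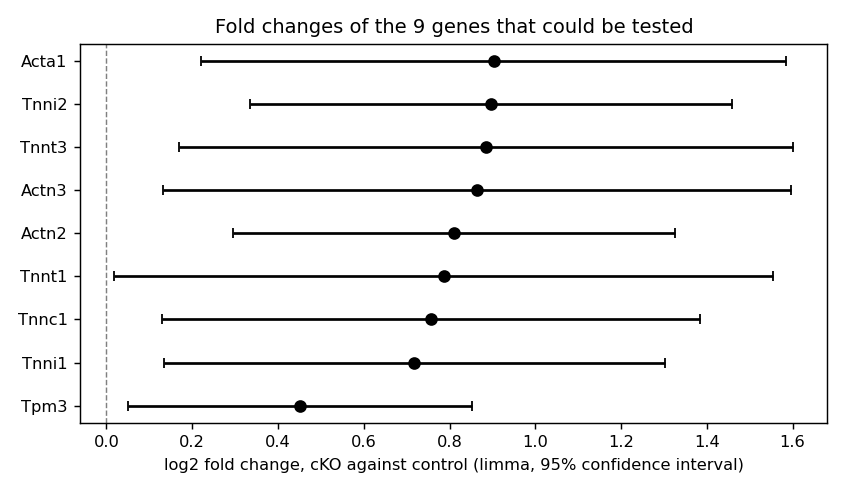
Log2 fold change, cKO against control, of the 9 genes that passed the filter on low reads, with the 95% confidence interval of the limma fit (3 libraries per group). The points lie between 0.45 for Tpm3 and 0.90 for Acta1, and the intervals all lie above 0 before adjustment for the number of genes.

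The isoform pairs put the fast and the slow gene of 1 library side by side, so the scaling of the library drops out. Between cKO and control uteri none of the pairs shifted beyond the spread of the libraries. The ratio of Tnni2 to Tnni1 was 20.8, 27.5 and 17.3 in control replicates 1 to 3, against 28.2, 23.1 and 22.0 in cKO replicates 1 to 3. The difference in the mean log2 ratio was 0.18, from 4.42 ± 0.33 (SD, n = 3) to 4.60 ± 0.19, with an exact two-sided permutation p of 0.4 (adjusted p = 0.8 over 4 pairs). The ratio of Tnnt3 to Tnnt1 was 9.40, 22.0 and 8.12 in the controls against 14.5, 10.8 and 13.2 in cKO animals. Its mean log2 ratio was 3.57 ± 0.77 and 3.67 ± 0.22, a difference of 0.10 (exact permutation p = 0.9, adjusted p = 0.9). All 3 cKO ratios of the troponin T pair and 2 of 3 of the troponin I pair lay within the control range.

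The ratio of Actn3 to Actn2 was 1.72, 4.18 and 1.32 in control replicates 1 to 3, against 1.83, 3.06 and 1.89 in cKO replicates 1 to 3. Its mean log2 ratio was 1.08 ± 0.87 (SD, n = 3) and 1.14 ± 0.42, a difference of 0.05 (exact permutation p = 0.8, adjusted p = 0.9). The pair of Tnnc2 and Tnnc1 rests on the 22 reads of Tnnc2, and its difference was -1.23 (exact permutation p = 0.4, adjusted p = 0.8). With 3 libraries against 3, the smallest p that such a test can give is 0.1. Expressed per kilobase, the fast gene made up 97.7 to 98.5% of troponin I in controls and 98.1 to 98.5% in cKO animals. For troponin T the share was 91.9 to 96.8% and 93.7 to 95.3%, and for these 2 actinins Actn3 made up 63.4 to 84.6% and 70.6 to 80.1%.

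In each of these 3 ratios, control replicate 2 was the highest control. Control replicate 2 had the highest control level of Acta1, Tnni2, Tnnt3, Actn3 and Tpm3 and the lowest control level of Tnni1, Tnnt1, Tnnc1 and Actn2, which are 5 and 4 of the 9 genes. Without it, each of the 3 cKO libraries had a higher ratio than both other controls for Tnni2 to Tnni1, for Tnnt3 to Tnnt1 and for Actn3 to Actn2. The log2 differences were then 0.36, 0.54 and 0.54 (exact permutation p = 0.2 for each). Without control replicate 3 they were 0.02, -0.18 and -0.29, and without control replicate 1 they were 0.16, -0.07 and -0.10. Without cKO replicate 2 the difference for Actn3 to Actn2 was -0.19, and without cKO replicate 1 those for Tnni2 to Tnni1 and Tnnt3 to Tnnt1 were 0.07 and 0.01. Removing 1 library thus changed the sign of the last 2 pairs, so no direction is given for them.

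Other genes of fast and slow fibres set control replicate 2, also the library with the most intestine transcripts, apart in the same way. Whether the one bears on the other was not tested. The fast myosin gene Myh4 was 23.3 times the slow myosin gene Myh7 in that library, against 3.17 and 4.19 in control replicates 1 and 3 and 10.7, 16.4 and 12.0 in cKO replicates 1 to 3. The summed level of 13 other fast-fibre genes was 11.2 times that of 12 other slow-fibre genes there, against 5.43 and 5.45 in the other controls and 7.77 to 10.2 in cKO libraries. These lists share no gene with the 10. The fast light chain gene Mylpf was 15.8 times the slow light chain gene Myl2 in control replicate 2, 7.12 and 7.82 times in the other controls, and 16.5, 11.6 and 11.2 times in cKO replicates 1 to 3. Among cKO animals, replicate 1 had the lowest level of all 9 tested genes, while the highest was replicate 2 for 6 genes and replicate 3 for 3.

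**Figure D4:**
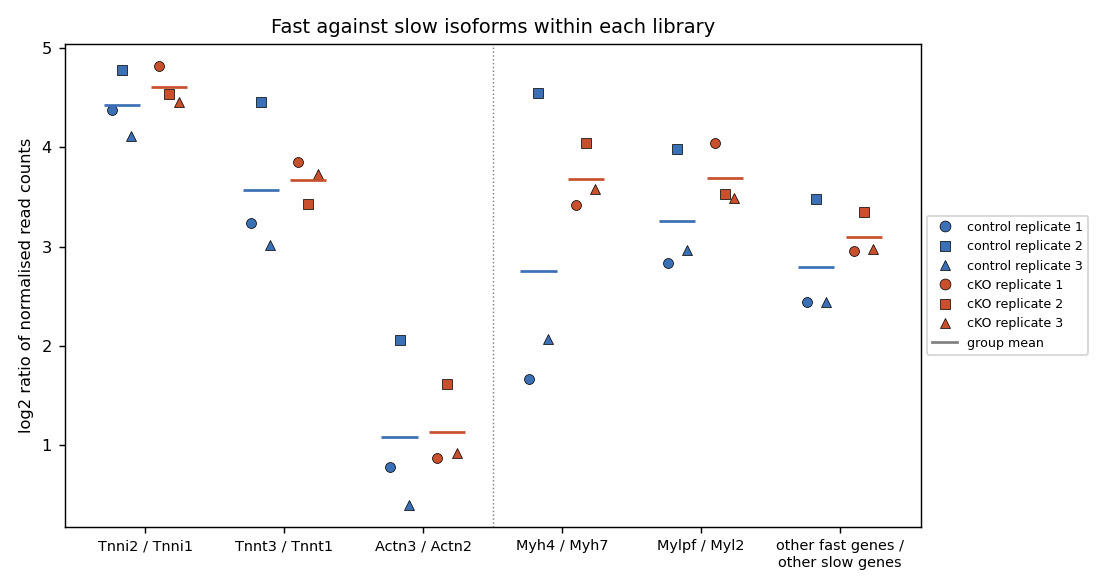
Log2 ratio of the normalised counts of a fast gene to a slow gene (Actn2 is a gene of all fibres) within each library, with controls in blue, cKO animals in red and a bar for the group mean; the 3 ratios right of the dotted line are genes outside the 10. Control replicate 2 (blue square) is the highest control in all 6 ratios, at 22.0 for Tnnt3 to Tnnt1 before taking logs against 9.40 and 8.12 in the other controls.

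Acta1 and the 3 abundant fast genes stood in a similar proportion to other fast-fibre genes in both groups. Against the summed level of the 13 other fast-fibre genes, Acta1 stood at 46.1 ± 4.13% of that sum in the controls (SD, n = 3) against 45.0 ± 3.71% in the knockouts. For Tnni2 the values were 16.0 ± 2.79% and 15.4 ± 1.21%, for Tnnt3 19.9 ± 3.99% and 19.0 ± 1.67%, and for Actn3 4.74 ± 0.53% and 4.52 ± 0.75%. Each of these differences was smaller than the spread between controls. The slow genes Tnni1 (0.780 ± 0.298% and 0.641 ± 0.113%), Tnnt1 (1.85 ± 1.03% and 1.51 ± 0.35%) and Tnnc1 (1.42 ± 0.69% and 1.13 ± 0.12%) were lower in the cKO mean by less than the spread between controls. Tpm3 was at 1.53 ± 0.38% in controls and 1.07 ± 0.01% in cKO animals, and its 3 cKO shares lay under all 3 control shares. These shares were not tested.

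Most genes that work with these proteins were also higher in the cKO mean. Of 29 partners of the thin filament and Z-disc, limma called 1 as higher (0.276% of all genes tested) and none as lower. DESeq2 called 10 as higher (1.22% of all its genes) and edgeR none (0.0797%). In the mean 25 were higher (50.3% of all genes tested), and the median log2 fold change was 0.68. The gene called was Tmod4, which caps the pointed end of skeletal actin filaments and rose from 3409 ± 302 (SD, n = 3) in controls to 6501 ± 753, by 0.93 ± 0.17 (SE) in log2 units (limma adjusted p = 0.0373). Its call was lost with edgeR (adjusted p = 0.0608), with the replicate block (limma adjusted p = 0.0535), without control replicates 1 and 3 (0.0516), and without control replicate 3 (0.0651) or cKO replicate 1 (0.0852), 2 (0.217) or 3 (0.239). Nrap, a scaffold of myofibril assembly, had 0.83 ± 0.17 (limma adjusted p = 0.0573). Xirp1, an actin-binding repeat protein, had 1.29 ± 0.26 (0.0613), and Lmod3, which nucleates actin filaments, had 0.73 ± 0.16 (0.0719). In 14 of the 29 the 3 cKO libraries lay above the 3 controls, against 9.04% of all genes tested, and the giant filament genes Neb and Ttn, named after their values were seen, are among the 14.

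No call was made by limma among 13 other fast-fibre genes. The unadjusted p was under 0.05 for 11, all higher in cKO animals, against 6.11% of all genes tested. DESeq2 called 7 as higher (1.22% of all its genes) and edgeR none (0.0797%). The median log2 fold change was 0.89. Those with the smallest p were Mylpf (0.99 ± 0.21, limma adjusted p = 0.0714), the calcium store gene Casq1 (1.01 ± 0.22, 0.0761), the light chain gene Myl1 (0.94 ± 0.23, 0.101) and the glycolytic enzyme gene Eno3 (0.89 ± 0.25, 0.16). The 12 other slow-fibre genes had a median of 0.66 and likewise no call by limma. Of them 8 were higher at an unadjusted p under 0.05, 3 were called by DESeq2 and none by edgeR, against the same shares of all genes. The slow-fibre genes were led by the light chain gene Myl3 (0.74 ± 0.21, 0.162), the Z-disc gene Csrp3 (0.90 ± 0.29, 0.207), the fatty acid carrier gene Fabp3 (0.71 ± 0.23, 0.209) and the myoglobin gene Mb (0.78 ± 0.27, 0.231). The fast and slow lists share Myoz1 and Myoz2, and Csrp3, with the list of partners.

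Of 19 genes of muscle identity and its regulators, limma called 1 as higher (0.276% of all genes tested) and none as lower. DESeq2 called 4 as higher (1.22% of all its genes) and edgeR none (0.0797%). The median difference was 0.46 in log2 units. The gene called by limma was Myod1, the myogenic determination factor, which rose from 95.7 ± 17.5 (SD, n = 3) in controls to 254.0 ± 10.3, by 1.41 ± 0.25 (SE) in log2 units (limma adjusted p = 0.0341). This call was lost with edgeR (adjusted p = 0.0502), with the replicate block (limma adjusted p = 0.0592) and without cKO replicate 1 (0.129), 2 (0.187) or 3 (0.221). Myf6 (0.83 ± 0.22), the acetylcholine receptor gene Chrna1 (0.87 ± 0.23) and Mef2c (0.46 ± 0.16) came next, without a call (limma adjusted p = 0.13, 0.135 and 0.249). In contrast, limma called 9 of 11 smooth muscle markers as lower, against 0.889% of all genes tested, and none as higher. Synm (-0.52) and Des (0.06), which also stands among the 29 partners, were not called, and the median of the list was -3.45 in log2 units. The smallest p among them was that of Myh11, the smooth muscle myosin heavy chain, at -4.50 ± 0.23 (limma adjusted p = 0.000107).

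**Figure D5:**
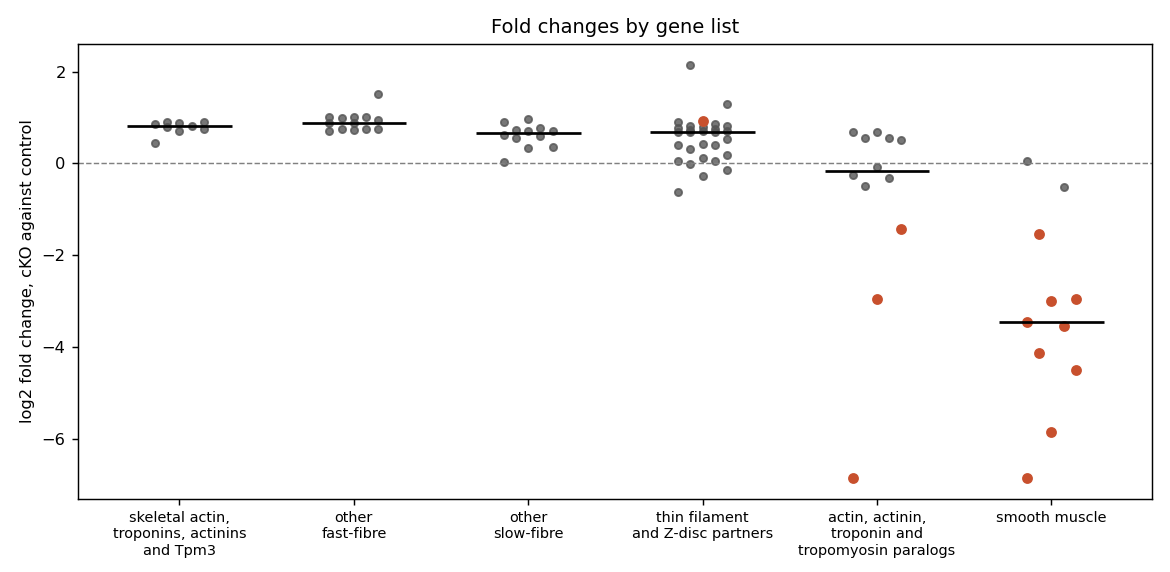
Log2 fold change, cKO against control, of each tested gene in 6 lists, with red points called by limma at an adjusted p under 0.05, black bars for list medians and a dashed line for the median of all genes tested. The skeletal lists sit around medians of 0.66 to 0.89 and hold 1 called gene, Tmod4, while 3 of 12 paralogs (Acta2, Actg2 and Actn1) and 9 of 11 smooth muscle markers are called as lower, Acta2 and Actg2 standing in both lists.

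Cardiac isoforms were checked because Tnnc1 is also the troponin C of the heart. Of 8 cardiac markers found, 7 passed the filter and limma called none, while DESeq2 called 1 as lower. The 1 with an unadjusted p under 0.05 was Ryr2, which was lower by -3.62 ± 0.85 (SE) in log2 units (limma adjusted p = 0.0947). Myh6 was at 21.9 to 132.6 in controls and 31.6 to 129.7 in cKO animals. Myl7, an atrial light chain, was at 24.4 or less in every library. Myl4, another light chain gene of this list, was at 1432 to 4085 in controls and 1478 to 5065 in cKO animals. The cardiac troponin genes Tnnt2 and Tnni3 differed by 0.56 ± 0.63 and 0.69 ± 0.40 in log2 units (SE; limma adjusted p = 0.768 and 0.501), with overlapping groups. Tnnt2 was at 790 to 2748 in controls and 1124 to 4210 in cKO animals. The cardiac markers together took 0.0200 to 0.0576% of reads in controls and 0.0198 to 0.0674% in cKO animals.

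The genes with the pattern most like that of Acta1 over the 6 libraries, by Pearson's r of log2 values, were Fyco1 (0.994), the glycolytic enzyme gene Aldoa (0.992), Tpm1 (0.990), Ndrg2 (0.988) and Zfp445 (0.986). Within the 10 genes, r with Acta1 was 0.977 for Tnnt3, 0.977 for Tnni2, 0.955 for Actn3, 0.946 for Tpm3, 0.819 for Tnni1, 0.708 for Actn2, 0.671 for Tnnt1 and 0.614 for Tnnc1. Most like Tnni1 were Rcan1 (0.995), the ATP synthase subunit genes Atp5d (0.992) and Atp5mpl (0.990), Bod1 (0.986) and Dvl1 (0.985), and the member nearest to it was Tnnt1 at 0.963. These coefficients are over 6 libraries that share their 2 groups and their scaling, so they describe these libraries only.

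The sequence before the start site was at hand for 7 of the 10 genes, in RefSeq entries on GRCm38.p6 that hold 250 bases before the start and 50 after it. Tnni2, Tnnt3 and Actn3 were not matched. These windows are described because the 9 genes were higher together in the cKO mean. Searched on both strands, the strict CArG box (CCWWWWWWGG, W being A or T), which binds serum response factor, was found in 1 of the 7, Acta1. It was in 1.63% of 32851 such windows, and looser matches were not sought. The 7 genes have 9 windows, while each percentage counts single windows. The MCAT element (CATTCC), bound by TEAD factors, was found in Acta1 and Tnnc1 and in 14.7% of windows. The E-box (CANNTG), bound by myogenic factors and by TCF21 alike, was in all 7 and in 72.3% of windows, and the MEF2 site in none of the 7 and 3.19%. The 250 bases before the start are shown for these 2 genes, with the CArG box and MCAT elements in capitals. Acta1 is at chr8:123894776-123895025 on the minus strand and Tnnc1 at chr14:31208062-31208311 on the plus strand.
Acta1: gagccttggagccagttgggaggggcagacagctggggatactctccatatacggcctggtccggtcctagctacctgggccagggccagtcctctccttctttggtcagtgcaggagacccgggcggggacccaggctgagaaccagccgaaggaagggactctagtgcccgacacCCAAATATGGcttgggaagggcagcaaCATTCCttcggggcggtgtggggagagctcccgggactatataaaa
Tnnc1: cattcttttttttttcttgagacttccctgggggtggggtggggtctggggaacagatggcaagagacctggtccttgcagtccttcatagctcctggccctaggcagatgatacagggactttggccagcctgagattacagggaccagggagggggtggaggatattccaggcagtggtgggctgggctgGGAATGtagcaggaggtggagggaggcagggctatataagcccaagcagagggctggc
In Acta1 the CArG box comes first and the MCAT element follows it. In Tnnc1 the MCAT element stands in reverse orientation. Srf, which encodes serum response factor, had a log2 fold change of -0.45 ± 0.25 and Tead1 of 0.35 ± 0.19 (limma adjusted p = 0.481 and 0.46), both named after their values were seen. A match is a description of the sequence, not evidence of binding.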

How the data were processed

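Uterine RNA of 3 control and 3 cKO animals was sequenced, and the labels name each library as a separate animal. Per the submitters' processing notes, the authors used HISAT2, SAMtools and featureCounts, without versions. The notes name GRCm39, while the coordinates of 25257 of 26006 identifiers, and of 9 of the 10 genes (not Actn3), are those of GENCODE M21 on GRCm38. The sources used here do not give the strand setting or the treatment of multi-mapping reads.

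The deposited values are read counts divided by 1 size factor per library (a normalised signal), and 100% of them were whole multiples of 1 read (tolerance 0.01 reads), so the reads could be recovered. The authors' deposited table also gives log2 fold changes and p-values, absent for 318 genes. In 24 rows a symbol turned into a date was restored. No row names anything but a gene.

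Because the values are normalised, log2(value + 1) was fitted with limma 3.58.1 in R 4.3.3 for 16314 genes that passed a filter on low reads, with Benjamini-Hochberg adjustment over all of them and a threshold of 0.05. Fold changes are on that scale. Ratios of isoforms were compared with an exact two-sided permutation test coded with numpy 2.4.6, adjusted over 4 pairs. Alternatives were edgeR 4.0.16 and DESeq2 1.42.0 on the recovered reads, other pseudocounts, no filter, TMM scaling, a replicate block and leaving out libraries. Scripts were tested on simulated data. Near-identical stretches were sought with blastn 2.17.0. Floors are 3 reads of a library and cover counting error only. The genes and lists were chosen with earlier results of these data known. Named from each list were up to 4 genes with the smallest p, and for Acta1 and Tnni1 the 5 genes with the highest Pearson r; other named genes were chosen after their values were seen.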

Additional observations from a re-analysis of the deposited data

How the results depend on the processing

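The 9 fold changes kept their direction in 126 of 126 refits (14 alternatives for each gene), between 0.21 and 1.28 on the log2 scale. The refits reuse the same libraries, and leaving out the filter or adding the replicate block cannot change a fold change. The 126 are therefore not separate tests of direction. Of the 10 genes limma called 0, DESeq2 called 4, and 2 were called without control replicates 1 and 3; leaving out 1 library gave 0 to 0. Over all genes, limma called 45 as higher and 145 as lower. The count of higher genes was 82 without a filter, 13 with edgeR, 227 with DESeq2 and 271 without control replicates 1 and 3. The count of lower genes was 609 with DESeq2 and 504 without those controls. Leaving out 1 library gave 1 (without cKO replicate 3) to 117 (without control replicate 1) higher genes and 42 to 347 lower genes. The cause was not tested.

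The log2 difference in isoform ratio ran over the same omissions from 0.02 to 0.36 for Tnni2 to Tnni1, from -0.18 to 0.54 for Tnnt3 to Tnnt1, from -0.29 to 0.54 for Actn3 to Actn2 and from -2.32 to -0.63 for Tnnc2 to Tnnc1. It turned negative for Tnnt3 to Tnnt1 without control replicate 1 (-0.07) or 3 (-0.18). It did so for Actn3 to Actn2 without control replicate 1 (-0.10), control replicate 3 (-0.29) or cKO replicate 2 (-0.19). The deviations of same-numbered libraries from their group means had r of 0.008, -0.176 and 0.044, against -0.121 to 0.099 for pairs with different numbers. With 3 libraries per group, these values cannot show whether same-numbered libraries share more than a number. With that number as a replicate block, 34 genes were called higher and 149 lower, none of the 10 was called, and the block gave adjusted p values from 0.101 (Actn2) to 0.344 (Tpm3). Tnnc2 rests on 22 reads, and DESeq2 gave it a log2 fold change of -1.29 ± 1.96 (SE).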
